A study of Mus musculus with 28 samples.

Results

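The 37 genes of the mouse mitochondrial genome were followed through the conversion of Pre-B cells into macrophages. They were chosen as every gene whose symbol starts with mt- among the 55450 genes of the deposited expression table, and comprise 13 mRNA genes, 2 rRNA genes and 22 tRNA genes. C10 is a mouse Pre-B cell line derived from HAFTL cells that carries a CEBPalpha-ER transgene, a fusion of rat C/EBPα with the hormone-binding part of the estrogen receptor, which enters the nucleus when β-estradiol is added. The 0h cells were uninduced, and the 1h, 12h and 48h cells had received 100 nM β-estradiol, 10 nM IL-3 and CSF-1 for that time. Each time point had 3 RNA libraries, labelled as biological replicates 1, 2 and 3, and all 12 came from cells with the transgene. The labels do not say that replicates were separate cultures, so p-values measure only the spread between these samples of 1 cell line, which may be technical. Levels are given as TPM (a gene's share of all transcripts of a library after division by gene length), which keep no record of sequencing depth, so depth is unknown here. In such bulk RNA, fewer cells of a type and less RNA per cell cannot be told apart.

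Mitochondrial DNA is transcribed from both strands into long RNAs that cover many genes, and the tRNAs that lie between the genes are cut out to release the rRNAs and mRNAs. Transcription is carried out by the polymerase POLRMT together with TFAM, which also packs the DNA, while the level of each mRNA further depends on its stability, to which the LRPPRC protein contributes. All the mRNAs encode subunits of the respiratory chain or the ATP synthase, whose other subunits are encoded in the nucleus, so that both genomes supply the same complexes.

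Replicate 3 stood apart in these genes at every time point. The summed TPM of the mt- genes in replicate 3 was 0.644 times the mean of replicates 1 and 2 at 0h, 0.611 times at 1h, 0.775 times at 12h and 0.435 times at 48h, and each count of called mt- genes below is also given from replicates 1 and 2 alone. The model has no term for the replicate number. With such a term (a replicate block) more mt- genes were called as deposited, as given in the closing section. Genes CT010467.1 and AY036118 on chromosome 17, treated here as nuclear rRNA genes, took between 70.3% and 82.9% of the TPM of a library. Replicate 3 had the lowest share of this pair too at each time point, so its low values were not confined to the mt- genes. In replicates 1, 2 and 3 the share was 79.8%, 79.3% and 76.9% at 0h and 82.9%, 82.7% and 75.7% at 48h. The median log2 change of the 16415 genes tested was 0.59 for 1h, 0.34 for 12h and -0.18 for 48h. Changes of the mt- genes are therefore read against these medians. How many of all genes tested had time points without overlap was not counted, so statements of no overlap below only describe the gene named. Median-of-ratios scaling of the libraries, which brings the medians to 0.02, 0.07 and 0.08, is given beside the counts. The summed TPM of 8 Pre-B cell markers was between 293 and 333 at 0h and between 26.9 and 38.4 at 48h, and that of 8 macrophage markers between 3.65 and 5.11 at 0h, 229 and 327 at 12h and 188 and 264 at 48h. Of the macrophage markers, Adgre1 (0, 0 and 0.29 TPM at 48h) and Mrc1 (0.65, 0.81 and 0.42) overlapped with 0h, and each of the others was higher in every 48h library than in any 0h library. Of 4 T cell and 4 erythroid markers, 3 each were at 0 in all libraries, and neither sum exceeded 0.11. The part of the change in cell type markers in the results on mt- genes was not tested.

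The rRNAs led the mt- genes in every library. The gene mt-Rnr1, for the small-subunit rRNA of the mitochondrial ribosome, had the fifth highest mean TPM of all genes (13048), and mt-Rnr2, for the large-subunit rRNA, had the sixth (9203). Together they took between 86.6% and 92.2% of the TPM of the mt- genes. The libraries were made after rRNA depletion, so these are the levels left by that step. Among the mRNAs as deposited, mt-Co1, the catalytic subunit of cytochrome c oxidase, had the highest mean TPM at 675 (rank 17 of all genes), followed by mt-Atp8 of the ATP synthase at 561 (rank 20), mt-Nd1 of complex I at 391 (rank 27) and mt-Cytb, the cytochrome b of complex III, at 244 (rank 46). The lowest means, also as deposited, were those of mt-Nd4l at 51.5, mt-Nd3 at 32.9 and mt-Co2 at 29.8. These levels were divided with nuclear copies, as described below. Joined with the copy, the mean at 0h was 107 TPM for mt-Nd4l, 111 for mt-Nd3 and 373 for mt-Co2.

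**Figure D1:**
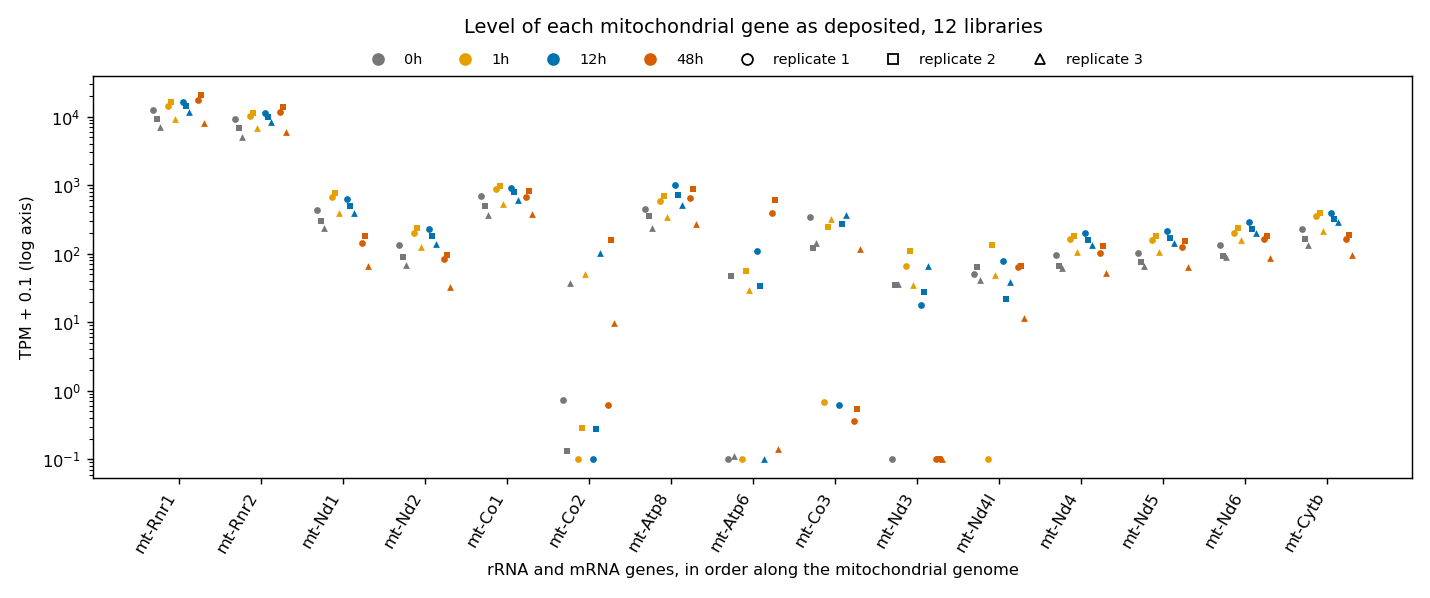
TPM + 0.1 (log axis) of the 2 rRNA and 13 mRNA genes in each of the 12 libraries, in order along the mitochondrial genome, with colours for time points and shapes for replicates. The rRNA genes lie highest in all libraries, and mt-Co2, mt-Atp6 and mt-Co3 are spread from under 1 to over 100 TPM.

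All 22 tRNA genes were listed at 0 in all 12 libraries, which is 264 of 264 values. They are between 59 bases (mt-Ts2, a serine tRNA) and 75 bases (mt-Tl1, a leucine tRNA) long, while reads were 100 bases. Of the 1025 genes of up to 75 bases in the whole table, 0 were above 0 in any library, and the shortest gene above 0 had 80 bases. A listed 0 is therefore shared by every gene of this size and gives no level of the tRNAs, and no change is stated for them.

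The junction of mt-Rnr2, mt-Tl1 and mt-Nd1 is shown because the ratio of the genes on its sides differed most between time points among the ratios that passed the test described below. It lies at chrMT:2656-2770 of GRCm38, plus strand, in the reference genome, with mt-Tl1 in capitals between the last bases of mt-Rnr2 and the first of mt-Nd1.
mt-Rnr2, mt-Tl1 and mt-Nd1: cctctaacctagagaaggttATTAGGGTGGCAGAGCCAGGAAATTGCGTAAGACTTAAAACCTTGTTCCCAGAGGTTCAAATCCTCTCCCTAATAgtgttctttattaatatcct
Other genes overlap with no tRNA between them. The overlap of mt-Atp8 and mt-Atp6, subunits of the ATP synthase, is shown as the longest, with the 43 shared bases in capitals, at chrMT:7907-7989 of GRCm38, plus strand.
mt-Atp8 and mt-Atp6: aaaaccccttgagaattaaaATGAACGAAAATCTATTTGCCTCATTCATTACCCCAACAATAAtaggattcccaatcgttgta
The mt-Nd4l and mt-Nd4 genes share 7 bases, mt-Nd5 and mt-Nd6 share 14 on opposite strands, and mt-Atp6 and mt-Co3 share 1. Reads in an overlap can belong to either gene. The library kit does not mark strand, so reads of mt-Nd6, the only mRNA gene on the minus strand, cannot be told from RNA of the opposite strand.

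For several mRNA genes, the deposited level depended on how reads were divided between the mitochondrial gene and a nuclear copy. Chromosome 1 of GRCm38 holds 7 pseudogenes annotated as copies of mitochondrial genes, on its minus strand between positions 24611535 and 24616197. Of these, 5 were identical over their whole length to a stretch of the mitochondrial gene: Gm28661 to 681 bases of mt-Co2, Gm10925 to 678 bases of mt-Atp6, Gm28437 to 783 bases of mt-Co3, Gm10222 to 294 bases of mt-Nd4l and Gm28439 to 876 bases of mt-Nd4. Gm29216 differed from 492 bases of mt-Co1 at 6 positions, and Gm28438 from 345 bases of mt-Nd3 at 1. The share of the 100-base windows of a gene that also occur in another annotated transcript was 99.8% for mt-Co3, 99.5% for mt-Co2, 99.5% for mt-Atp6, 98.5% for mt-Nd4l and 97.6% for mt-Nd3. It was 60.8% for mt-Nd4, 30.8% for mt-Co1, 3.19% for mt-Nd2 and 0% for the other 7 rRNA and mRNA genes, although all windows of mt-Atp8 occur in the nuclear genome outside annotated transcripts.

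The start of mt-Nd3 is shown with its copy because 1 base there is all that separates them over the length of the copy. The mitochondrial stretch is chrMT:9436-9486, plus strand, and the copy chr1:24613092-24613142, minus strand, both of GRCm38, with the differing base in capitals. Counted along the mitochondrial genome the difference is T9461C, with the mitochondrial base first.
mt-Nd3: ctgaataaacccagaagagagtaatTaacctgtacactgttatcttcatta
Gm28438: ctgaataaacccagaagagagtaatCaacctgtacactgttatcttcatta

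The division between gene and copy differed from library to library, and the joined level was less spread. For mt-Co2, a copper-binding subunit of cytochrome c oxidase, the TPM was 0.63, 0.03 and 36.7 at 0h, 0, 0.19 and 50.8 at 1h, 0, 0.18 and 103 at 12h and 0.53, 156 and 9.78 at 48h. Its copy Gm28661 had 459.7, 363 and 265 TPM at 0h and 561, 493 and 283 at 48h. Joined, by adding both TPM weighted by length, mt-Co2 had 458, 362 and 300.1 TPM at 0h, 755, 839 and 506 at 1h, 820.1, 681 and 628 at 12h and 559, 646 and 292 at 48h. The SD between replicates, pooled over time points on the log2 scale, was 4.62 for mt-Co2 as deposited and 0.40 joined. It was 5.62 and 0.52 for mt-Atp6, 4.32 and 0.34 for mt-Co3, 2.53 and 0.34 for mt-Nd3, and 2.94 and 0.44 for mt-Nd4l. For mt-Co1 and mt-Nd4, whose copies cover less of the gene, it was 0.47 and 0.46 as deposited and 0.48 and 0.51 joined. The 8 genes without an annotated copy on chromosome 1 had between 0.39 (mt-Nd6) and 0.63 (mt-Atp8). Shorter runs shared with the annotated transcripts Gm13339 (mt-Nd2), Gm13340 (mt-Co1) and Gm13341 (mt-Co2) were not joined. For the identical copies, how much of the joined RNA came from chromosome 1 cannot be told apart. The same holds for most of mt-Nd3, since 97.6% of its windows also occur in another annotated transcript. With joined levels, replicate 3 was the lowest library at all 4 time points in 15 of 15 genes.

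**Figure D2:**
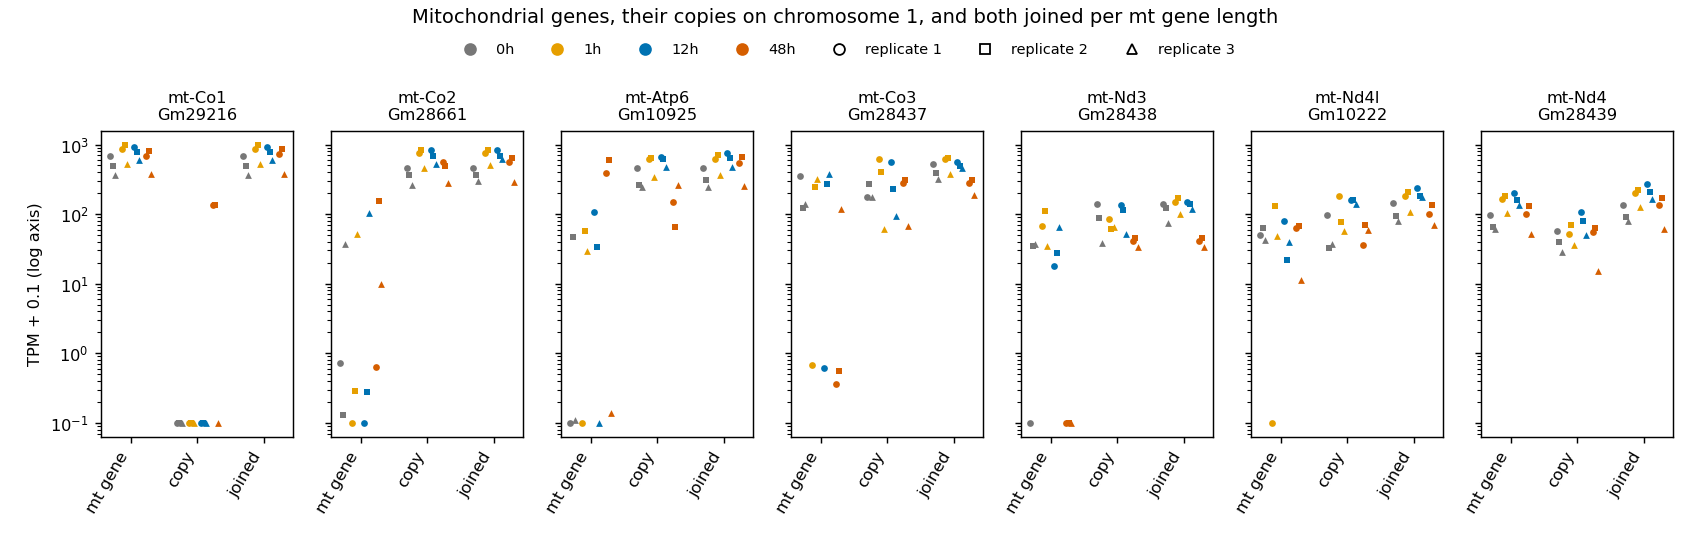
TPM + 0.1 (log axis) of 7 mitochondrial genes, of their annotated copies on chromosome 1 and of both joined per length of the mitochondrial gene, in the 12 libraries (colours for time points, shapes for replicates). The points of mt-Co2, mt-Atp6, mt-Co3, mt-Nd3 and mt-Nd4l reach from near 0 to over 100 TPM, and the joined points of each lie close together.

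At 1h, 1 of the 15 rRNA and mRNA genes tested rose and none fell. It was mt-Nd6 (chrMT:13552-14070), a membrane subunit of complex I, which passes electrons from NADH into the respiratory chain. Reads of mt-Nd6 cannot be told from RNA of the opposite strand, as given above. Its TPM was 133, 93.1 and 90.1 at 0h and 199, 234 and 157 at 1h, and the groups did not overlap. The log2 change was 0.90 (SE 0.30, limma adjusted p = 0.0441), or 0.31 above the median of all genes. Over all genes, 24.1% were called higher and 1.41% lower at 1h, a background that 1 of 15 does not exceed. At an unadjusted p under 0.05, 6 genes were higher and 0 lower. The share of all genes at that unadjusted threshold was not counted, so such counts, here and below, cannot be read against a background. No gene was called without replicate 2 or 3 of 0h, replicate 1 or 2 of 1h or any 12h library, and 6 were without replicate 3 of 48h.

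Most of the other genes had positive changes at 1h that did not pass the test. Complex I genes mt-Nd4 (0.99, limma adjusted p = 0.0506) and mt-Nd5 (0.88, 0.0707) did not overlap with 0h either. The log2 changes of mt-Rnr1 (0.47) and mt-Rnr2 (0.43) lay below the median of all genes and were negative after median-of-ratios scaling (-0.19 and -0.23). From replicates 1 and 2 alone, mt-Nd1, mt-Nd2, mt-Nd4, mt-Nd5, mt-Nd6 and mt-Cytb were called higher and 0 lower (6 of 15, background 15.0% higher and 1.06% lower). After median-of-ratios scaling 0 of 15 were called in either direction (background 5.43% higher and 4.87% lower, and 0 of 15 at an unadjusted p under 0.05), also from replicates 1 and 2 alone.

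At 12h, 4 of the 15 genes rose and none fell, and the 4 lie next to each other on the genome, with only tRNA genes between them. They were mt-Nd4 (chrMT:10167-11544), mt-Nd5 (chrMT:11742-13565) and mt-Nd6 of complex I, and mt-Cytb (chrMT:14145-15288) of complex III. The TPM of mt-Nd5 was 100.4, 74.5 and 65.0 at 0h and 214, 170.5 and 142 at 12h, a log2 change of 1.14 (SE 0.33, limma adjusted p = 0.0226). That of mt-Nd6 was 294, 225 and 198 at 12h, a log2 change of 1.19 (SE 0.30, limma adjusted p = 0.0109). In all 4 genes, the 12h libraries lay above every 0h library, for which no share over all genes was counted. The TPM of mt-Nd4 was 97.0, 65.8 and 61.8 at 0h and 201, 159 and 135 at 12h (log2 change 1.15, limma adjusted p = 0.0239). The TPM of mt-Cytb was 227, 164 and 131 at 0h and 394, 322 and 286 at 12h (log2 change 0.96, limma adjusted p = 0.0360). The 4 changes were 0.62 to 0.85 above the median of all genes, and the background at 12h was 22.3% higher and 7.82% lower, so that a count of 4 of 15 is near it. Only mt-Nd6 kept its call without replicate 2 or 3 of 0h or replicate 1 or 2 of 12h, and 6 genes were called without replicate 3 of 48h.

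Joining the copies added 2 calls at 12h. Joined, 6 of 15 genes were called higher (background 22.3% higher and 7.81% lower), namely mt-Nd4, mt-Nd5, mt-Nd6, mt-Cytb, the complex I gene mt-Nd4l (0.93, limma adjusted p = 0.0490) and, away from these, mt-Co2 (0.94, 0.0391). The TPM of mt-Atp8 was 454, 355 and 234 at 0h and 1019, 726 and 512 at 12h, with no overlap, a log2 change of 1.11 (SE 0.45) and a limma adjusted p of 0.0863. The smallest joined changes were those of mt-Nd3 (0.32) and mt-Co3 (0.33), which lay at the median of all genes and turned to -0.02 and just under 0 after median-of-ratios scaling. From replicates 1 and 2 alone, 6 genes were called as deposited (mt-Nd2, mt-Atp8, mt-Nd4, mt-Nd5, mt-Nd6 and mt-Cytb, background 12.8% higher and 7.07% lower). After median-of-ratios scaling, 0 were called from all 12 libraries (background 16% higher and 14.4% lower, 3 higher at an unadjusted p under 0.05), with mt-Nd6 at 0.85 and a limma adjusted p of 0.0648. From replicates 1 and 2 with that scaling 5 were called, a count for which no share of all genes is given here.

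At 48h, 2 of the 15 genes fell, mt-Nd1 and mt-Nd3, both membrane subunits of complex I, and none rose. The background was 27.2% lower and 15.9% higher, neither of which the members' counts exceed, and 0 genes were higher at an unadjusted p under 0.05. The TPM of mt-Nd1 (chrMT:2751-3707) was 429.6, 295 and 238 at 0h, 666, 772 and 393 at 1h, 620.0, 499 and 386 at 12h and 144, 179.8 and 65.7 at 48h. Every 48h library lay below every library of the other time points. The log2 change from 0h was -1.38 (SE 0.39, limma adjusted p = 0.0128), against -0.18 for the median of all genes. It was -1.14 (adjusted p = 0.0134) from replicates 1 and 2 alone by limma, -0.96 (0.0687) after median-of-ratios scaling, and -1.15 (0.0572) without replicate 1 of 0h.

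As deposited, mt-Nd3 (chrMT:9459-9806) was listed at 0 in all 3 libraries of 48h and in replicate 1 of 0h, so no fold is given for it and its call (limma adjusted p = 0.0202) is of levels that were divided with Gm28438. The call was lost when replicate 2 or 3 of 0h or any replicate of 48h was left out. Without replicate 3 of 48h, mt-Co3 as deposited was called lower and mt-Rnr1, mt-Atp8, mt-Nd5 and mt-Nd6 higher. Joined with the copy, mt-Nd3 had 138, 121 and 74.9 TPM at 0h, 150.1, 172 and 100.4 at 1h, 149.7, 139 and 117 at 12h and 40.8, 44.6 and 33.4 at 48h. The 48h libraries again lay below all others. The joined log2 change was -1.46 (SE 0.26, limma adjusted p = 0.000717), -1.60 (0.00038) from replicates 1 and 2 alone, and -1.04 (0.00429) after median-of-ratios scaling.

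The neighbours of these genes were spread between lower and higher levels at 48h. The TPM of mt-Nd2, the next mRNA gene after mt-Nd1, was 132, 88.5 and 68.7 at 0h and 82.7, 94.4 and 32.5 at 48h, with overlap (log2 change -0.55, limma adjusted p = 0.310). Joined mt-Co3, the gene before mt-Nd3 and a subunit of cytochrome c oxidase, had 523, 389.7 and 318 TPM at 0h and 279, 304 and 185 at 48h, with no overlap (log2 change -0.68, SE 0.27, limma adjusted p = 0.0614). The joined change of mt-Co3 was -0.63 (limma adjusted p = 0.0299) from replicates 1 and 2 alone and -0.265 (0.436) after median-of-ratios scaling. On the other side, mt-Rnr1 had 12244, 9196 and 6995 TPM at 0h and 17493, 20798 and 8115 at 48h (log2 change 0.64, limma adjusted p = 0.253). In mt-Rnr1, as in mt-Rnr2 and mt-Atp8, replicates 1 and 2 of 48h lay above all 0h libraries and replicate 3 lay among them. The TPM of mt-Atp8 at 48h was 651, 879 and 268 (log2 change 0.67, limma adjusted p = 0.259). In mt-Nd4, mt-Nd5 and mt-Nd6, replicates 1 and 2 of 48h lay above all 0h libraries and replicate 3 below all of them, with 126, 153 and 63.6 TPM for mt-Nd5. The mt-Cytb level at 48h (165, 185 and 95.1 TPM) overlapped with that at 0h, and the sign of its change (-0.25) turned after median-of-ratios scaling (0.17).

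The remaining genes passed no test at 48h. The TPM of mt-Co1 (chrMT:5328-6872) was 692, 494 and 367 at 0h, 863, 986 and 521 at 1h, 914, 789.5 and 604 at 12h and 679, 819 and 374 at 48h, and all 3 later groups overlapped with 0h. Joined mt-Atp6, the proton channel subunit of the ATP synthase, had 454, 304 and 241 TPM at 0h, 617, 701 and 368 at 1h, 764, 643 and 479 at 12h and 537, 666 and 257 at 48h, with no overlap only at 12h (log2 change 0.94, limma adjusted p = 0.0858). Joined mt-Nd4l had 146, 94.9 and 78.9 TPM at 0h, 179.7, 208 and 106 at 1h, 237, 179 and 177 at 12h and 99.2, 137 and 69.4 at 48h, and the 48h libraries overlapped with those of 0h. For mt-Rnr2 the TPM was 9274, 6854 and 5064 at 0h, 10334, 11360.1 and 6703 at 1h, 11346, 9963 and 8238 at 12h and 11634, 13785 and 5876 at 48h, with overlap at each time.

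Which genes were called at 48h depended on replicate 3 and on the scaling. From replicates 1 and 2 alone, mt-Atp8 (0.91, limma adjusted p = 0.0368) and mt-Nd5 (0.68, 0.0463) were called higher and mt-Nd1 lower (background 12.3% higher and 25.2% lower). With median-of-ratios scaling of those 8 libraries, 7 genes were called higher (mt-Rnr1, mt-Rnr2, mt-Co1, mt-Atp8, mt-Nd4, mt-Nd5 and mt-Nd6) and 0 lower, with mt-Nd1 at -0.60 (limma adjusted p = 0.0565). No share of all genes called is given here for those scaled 8 libraries, so this count cannot be read against a background. With that scaling of all 12 libraries, mt-Nd3 alone was called lower and 0 genes higher (background 21.9% and 24.6%, and 5 higher at an unadjusted p under 0.05), with mt-Nd6 at 0.82 (limma adjusted p = 0.0537).

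**Figure D3:**
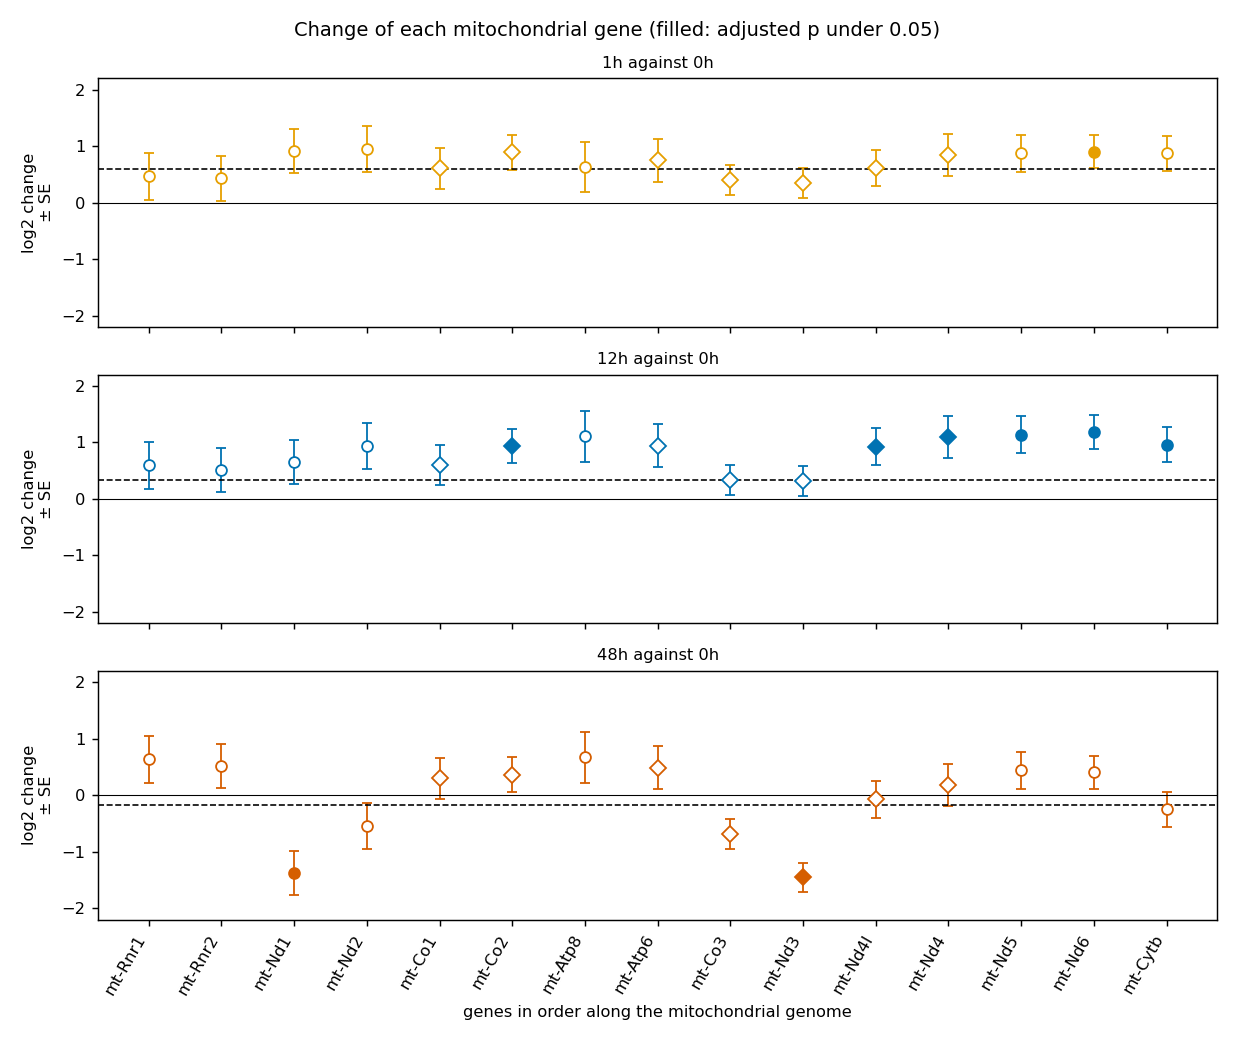
Log2 change of TPM + 0.1 against 0h with its SE for 15 mitochondrial genes in genome order, as deposited (circles) or joined with the chromosome 1 copy (diamonds), filled where the limma adjusted p is under 0.05. The dashed line is the median of all genes tested. At 48h the filled points of mt-Nd1 (-1.38) and joined mt-Nd3 (-1.46) lie apart from the others.

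Ratios between neighbouring genes within a library do not depend on how libraries are scaled. The log2 ratio differed between time points for 5 of the 14 pairs of neighbours as deposited, by an exact permutation test of the between-group sum of squares, which has no direction, over all 369600 assignments of the 12 libraries, adjusted over the 14 pairs. The ratio of mt-Rnr2 to mt-Nd1 was 4.43, 4.54 and 4.41 at 0h, 3.96, 3.88 and 4.09 at 1h, 4.19, 4.32 and 4.42 at 12h and 6.33, 6.26 and 6.48 at 48h (exact permutation adjusted p = 0.00136). The 48h libraries lay 1.90 above 0h in the mean with no overlap, and replicate 3 lay with the other 48h libraries. The level of mt-Rnr2 is what the rRNA depletion left, so this ratio may also vary with that step, which was not tested. These genes stand on the sides of the mt-Tl1 junction printed above.

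The pairs that follow mt-Nd1 differed too. The log2 ratio of mt-Nd1 to mt-Nd2 averaged 1.74 ± 0.04 (SD, n = 3, exact permutation adjusted p = 0.00136) for 0h, then 1.70 ± 0.02 for 1h, 1.47 ± 0.03 for 12h and finally 0.91 ± 0.11 for 48h. That of mt-Nd2 to mt-Co1 averaged -2.43 ± 0.04 for 0h, then -2.08 ± 0.01 for 1h, -2.09 ± 0.08 for 12h and finally -3.22 ± 0.26 for 48h (exact permutation adjusted p = 0.00227). Against its neighbours on both sides, mt-Nd1 was thus lowest at 48h, with the limit given above for mt-Rnr2, and mt-Nd2 was low against mt-Co1.

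At the other end of the genome the differences were smaller. Since the kit does not mark strand, the level of mt-Nd6 may include RNA of the opposite strand. The log2 ratio of mt-Nd6 to mt-Cytb, which lie on opposite strands, averaged -0.71 ± 0.15 for 0h, then -0.68 ± 0.19 for 1h, -0.49 ± 0.06 for 12h and finally -0.06 ± 0.09 for 48h (exact permutation adjusted p = 0.0111). That of mt-Nd4 to mt-Nd5 was -0.10 ± 0.07 at 0h and -0.29 ± 0.03 at 48h (exact permutation adjusted p = 0.00227). The ratio of mt-Rnr1 to mt-Rnr2 (0.43 ± 0.03 at 0h and 0.55 ± 0.07 at 48h) did not pass (exact permutation adjusted p = 0.159), nor did that of mt-Nd5 to mt-Nd6 (0.810).

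With copies joined, 9 of 14 pairs differed, the same 5 and 4 more. The log2 ratio of mt-Atp6 to mt-Co3, between which there is no tRNA, averaged -0.32 ± 0.10 for 0h, then 0.03 ± 0.08 for 1h, 0.29 ± 0.21 for 12h and finally 0.85 ± 0.34 for 48h (exact permutation adjusted p = 0.000682). That of mt-Nd3 to mt-Nd4l averaged 0.07 ± 0.25 for 0h, then -0.20 ± 0.11 for 1h, -0.54 ± 0.15 for 12h and finally -1.32 ± 0.28 for 48h (exact permutation adjusted p = 0.000682). The pairs mt-Co3 and mt-Nd3 (1.90 ± 0.20 at 0h, 2.67 ± 0.17 at 48h, exact permutation adjusted p = 0.0242) and mt-Co1 and mt-Co2 (0.44 ± 0.15 at 0h, 0.10 ± 0.14 at 12h, 0.0236) were the others. No joined ratio passed from mt-Co2 to mt-Atp8 or from mt-Atp8 to mt-Atp6 (both 0.113), nor from mt-Nd4l to mt-Nd4 (0.449). In the 8 libraries of replicates 1 and 2 alone 0 of 14 passed, and the 5 pairs above and mt-Rnr1 with mt-Rnr2 shared the smallest exact permutation adjusted p, 0.0667. These 8 libraries allow far fewer assignments, so a single pair at the smallest possible p could not pass after adjustment. The count of 0 therefore does not show whether the ratios depend on replicate 3.

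**Figure D4:**
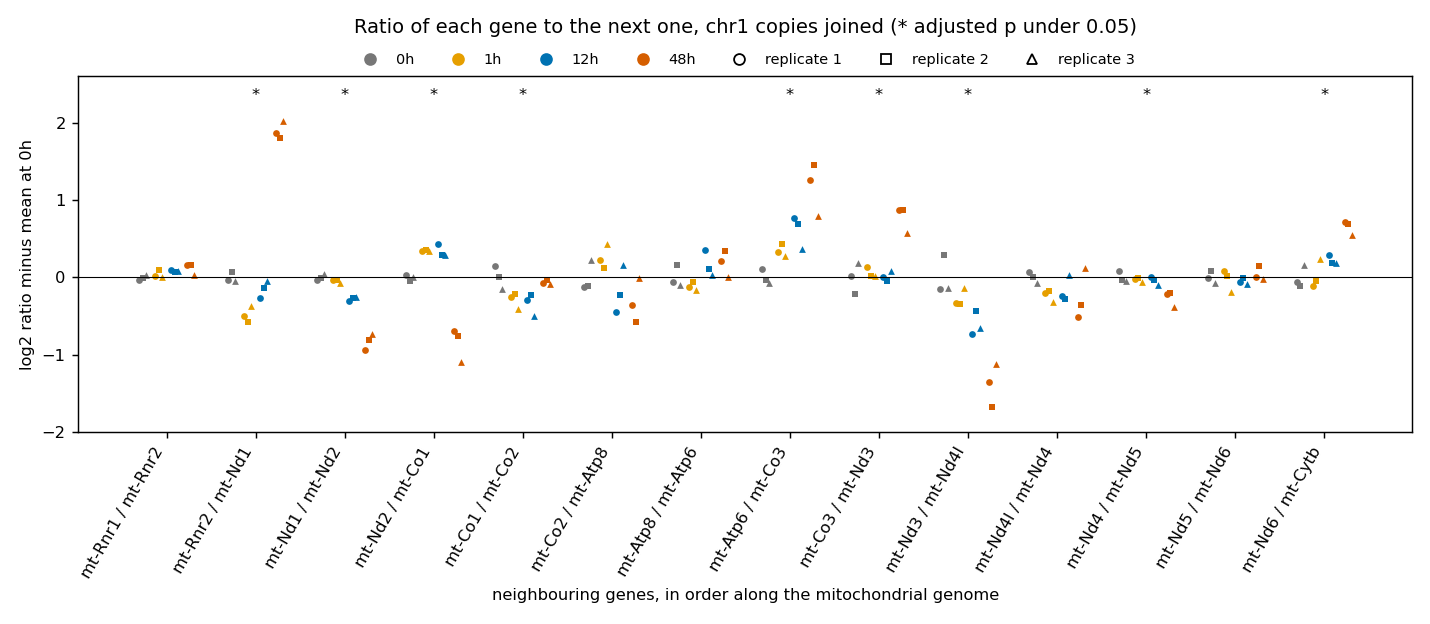
Log2 ratio of TPM + 0.1 between each gene and the next, with chromosome 1 copies joined, minus its mean at 0h, for 14 neighbouring pairs in 12 libraries (colours for time points, shapes for replicates). Asterisks mark exact permutation adjusted p under 0.05. The 48h libraries lie apart from the rest for mt-Rnr2 to mt-Nd1 (mean difference 1.90) and mt-Nd3 to mt-Nd4l (-1.38).

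The nuclear partners of the mt- genes were taken from lists. Those of the respiratory chain and of mitochondrial ribosomal proteins were made by the start of the gene symbol, and the others by function. The respiratory chain list, and with it the complex I counts, holds assembly factor genes such as Ndufaf1 and genes named as pseudogenes, such as Ndufb1-ps. Of 94 tested nuclear genes of the respiratory chain and ATP synthase, 76 fell and 0 rose at 48h (median log2 change -1.52, all genes -0.18), and 62 fell and 1 rose after median-of-ratios scaling. The background at 48h was 27.2% lower and 15.9% higher over all genes, or 21.9% and 24.6% after that scaling. From replicates 1 and 2 alone, 71 fell and 0 rose (background 25.2% lower and 12.3% higher). By complex, 36 of 48 nuclear genes of complex I fell beside 2 of 7 mt- genes, 8 of 9 of complex III beside 0 of 1, 12 of 14 of complex IV beside 0 of 3 and 15 of 18 of the ATP synthase beside 0 of 2, with joined mt- levels. All 4 nuclear genes of complex II, which has no mt- subunit, fell. After median-of-ratios scaling the nuclear genes called lower were 27 of complex I, 3 of complex II, 8 of complex III, 10 of complex IV and 14 of the ATP synthase. The TPM of Atp5b, the catalytic beta subunit of the ATP synthase, was 105, 116 and 111 at 0h and 18.9, 32.1 and 28.2 at 48h (log2 change -2.10, limma adjusted p = 3.23e-06). Ndufs7, an iron-sulfur subunit of complex I, had 10.8, 10.7 and 11.2 TPM at 0h and 2.66, 2.95 and 3.97 at 48h (log2 change -1.75, limma adjusted p = 7.67e-06). Cox6a2, a cytochrome c oxidase subunit best known from muscle, went from 5, 3.43 and 6.36 TPM to 0, 0 and 0.11 (limma adjusted p = 2.67e-07). At 12h, 4 of the 94 fell and 2 rose, and at 1h 0 fell and 4 rose. These counts of genes higher lie below the background, which was 22.3% higher and 7.82% lower at 12h and 24.1% and 1.41% at 1h. With the libraries scaled by median-of-ratios, 23 fell and 0 rose at 12h, and 5 fell and 0 rose at 1h (background 14.4% lower at 12h and 4.87% at 1h).

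Summed levels show both genomes side by side, as a description. The summed TPM of joined mt- mRNAs over that of the nuclear respiratory chain genes was 3.05, 2.36 and 1.85 at 0h, 3.44, 4.08 and 2.32 at 1h, 6.51, 4.88 and 3.03 at 12h and 9.57, 10.1 and 3.16 at 48h. Replicates 1 and 2 of 48h were the highest and replicate 3 of 48h lay among the earlier libraries. The mt- mRNA sum itself was 4020.0, 2927 and 2287 TPM at 0h and 3707, 4502 and 1882 at 48h, while the nuclear sum was 1320.0, 1242 and 1235 and 387, 446 and 596. The nuclear sum was thus lower in every 48h library than in any 0h library, and the mt- sum overlapped.

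The RNA of genes whose products work on mitochondrial rRNA and mRNA was mostly lower at 48h, against a background of 27.2% lower and 15.9% higher. Of 81 genes with symbols of mitochondrial ribosomal proteins, 65 fell and 0 rose (median log2 change -1.64), with 59 lower after median-of-ratios scaling and 59 from replicates 1 and 2 alone, beside mt-Rnr1 and mt-Rnr2, which did not pass in either direction. The 81 include genes named as pseudogenes, such as Mrpl48-ps. Mrpl12, a large-subunit protein, had 12.4, 11.4 and 11.9 TPM at 0h and 1.04, 0.53 and 1.74 at 48h (log2 change -3.45, limma adjusted p = 4.7e-06), and Mrpl42 (-2.28) and Mrpl9 (-2.09) also fell. Of 35 genes for mitochondrial RNA processing and stability, 27 fell and 0 rose (median -1.44), and of 32 translation factors and tRNA ligases 22 fell and 0 rose (median -1.50). After median-of-ratios scaling 24 and 21 were lower, against 21.9% of all genes, and from replicates 1 and 2 alone 22 and 22. Lrpprc, which stabilizes mitochondrial mRNAs, had 5.75, 4.46 and 3.81 TPM at 0h, 2.03, 2.2 and 2.96 at 12h and 0.54, 0.82 and 1.27 at 48h (log2 change at 48h -2.34, limma adjusted p = 4.06e-05). Pus1, a pseudouridine synthase of tRNAs (-2.76), Tbrg4, an RNA-binding protein of mitochondria (-2.15), and Tars2 (-2.68) and Sars2 (-2.10), the mitochondrial threonine and serine tRNA ligases, fell as well, as did the elongation factor Gfm1 (-1.56).

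Genes for copying and transcribing mitochondrial DNA were lower at 48h too. Of 17, 11 fell and 0 rose (median log2 change -1.18), and 9 fell and 1 rose after median-of-ratios scaling. The background was 27.2% lower and 15.9% higher, and from replicates 1 and 2 alone 8 fell. Tfam had 7.54, 4.45 and 4.13 TPM at 0h, 6.10, 8.26 and 3.51 at 1h, 2.45, 1.75 and 1.65 at 12h and 1.08, 1.11 and 1.58 at 48h (log2 change -1.39 at 12h and -1.98 at 48h, limma adjusted p = 0.00869 and 0.000472). Polrmt had 4.21, 3.43 and 1.92 TPM at 0h and 0.98, 0.85 and 1.42 at 48h (log2 change -1.43, limma adjusted p = 0.00416). The DNA polymerase gene Polg (-1.98) and the single-strand binding protein gene Ssbp1 (-1.60) fell. At 12h, 2 of the 17 fell and 0 rose, near the background of 7.82% lower, and 6 fell after median-of-ratios scaling (background 14.4% lower).

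Of 11 nuclear regulators of mitochondrial biogenesis, 6 fell and 0 rose at 48h (median log2 change -0.86), against a background of 27.2% lower and 15.9% higher. After median-of-ratios scaling 5 fell and 0 rose, and from replicates 1 and 2 alone 6 fell. The genes that fell included Myc (-1.78), a growth regulator, Pprc1 (-2.35) and Ppargc1b (-1.62), coactivators of the PGC-1 family, and Nrf1 (-1.26), an activator of respiratory chain genes. Of 11 genes for mitophagy, the removal of mitochondria by autophagy, 3 rose and 2 fell at 48h, and 4 rose and 0 fell at 12h and 5 rose and 0 fell at 1h. The background was 27.2% lower and 15.9% higher for 48h, with 22.3% higher for 12h and 24.1% higher for 1h, so the counts at 48h are near the background. After median-of-ratios scaling 4 rose and 2 fell at 48h, 4 rose and 1 fell at 12h, and 0 were called at 1h. From replicates 1 and 2 alone, 2 rose and 2 fell at 48h. Bnip3l, a mitophagy receptor, had 2.94, 3.16 and 3.55 TPM at 0h, 13.4, 12.0 and 18.7 at 12h and 7.90, 8.88 and 8.41 at 48h (log2 change at 48h 1.36, limma adjusted p = 0.000231). Sqstm1, a cargo adaptor of autophagy (1.59), and Pink1, a kinase that marks damaged mitochondria (0.87), rose, and the receptor genes Phb2 (-2.56) and Bcl2l13 (-1.55) fell. Each gene named from these lists kept its 48h call when the libraries were scaled by median-of-ratios. The call of Pink1 was lost from replicates 1 and 2 alone (0.63, limma adjusted p = 0.111) and without replicate 1 of 0h (limma adjusted p = 0.0724), replicate 2 of 0h or replicate 3 of 48h, and that of Bcl2l13 from replicates 1 and 2 with median-of-ratios scaling (-1.45, 0.0910). Both were also lost without a filter on low values and from the 6 libraries compared alone, and Pink1 with a pseudocount of 1.

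**Figure D5:**
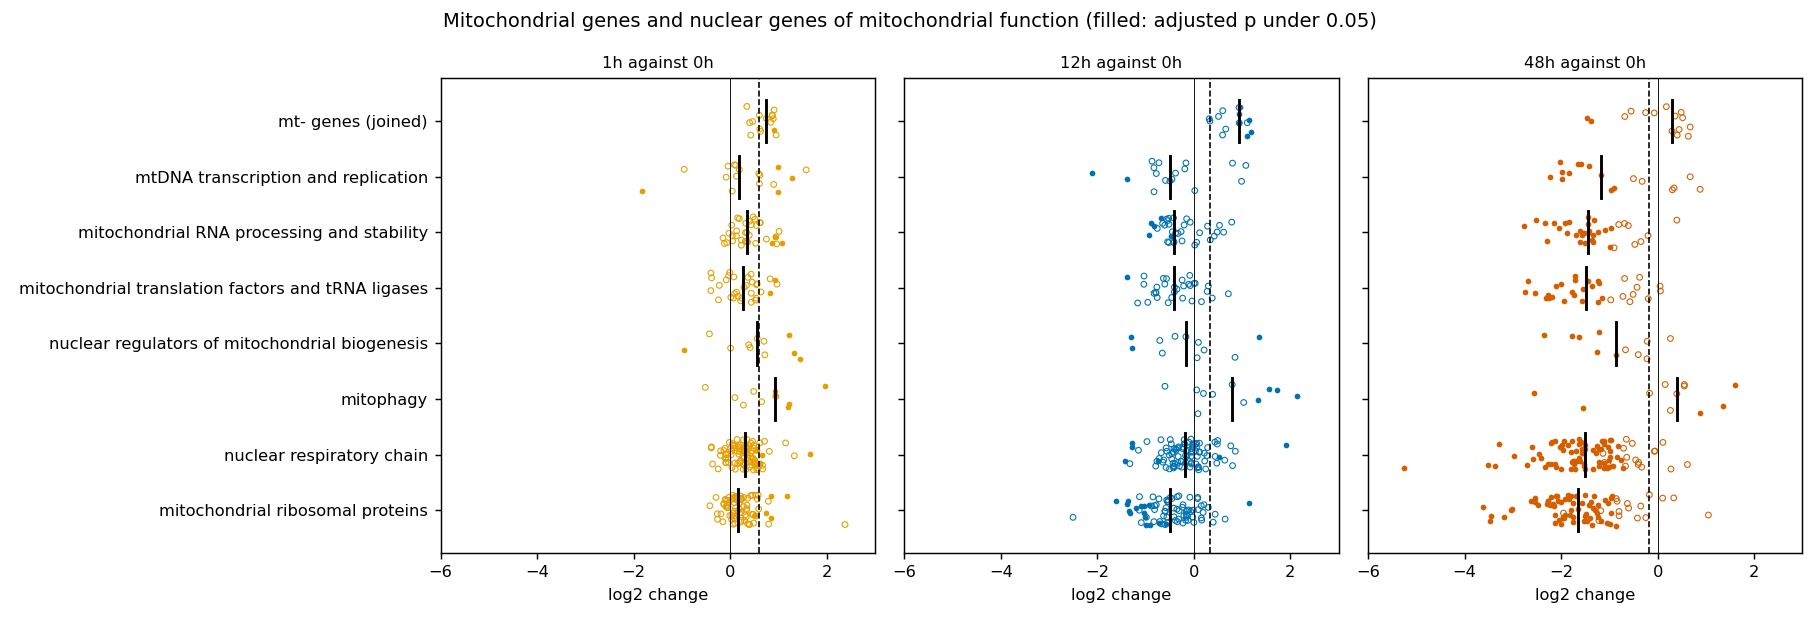
Log2 change against 0h at 1h, 12h and 48h of each tested gene of the mt- group (joined with copies) and of 7 lists of nuclear genes with mitochondrial functions, 1 point per gene. Black bars mark the median of each group and dashed lines the median of all genes tested. At 48h the median of the nuclear respiratory chain lies at -1.52 and that of the mt- genes at 0.30.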

How the data were processed

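RNA was measured in 12 libraries of C10 cells, 3 at each of 4 time points, after rRNA depletion and with a kit that does not mark strand. Per the study's methods and the submitters' processing notes, the authors trimmed reads with Trim Galore 0.6.2, checked them with FastQC, aligned them with HISAT2 2.1.0 to mm10, merged technical replicates and computed gene levels with RSEM. The deposited values are TPM, which keep no counts, so no count test was run and depth is unknown.

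The mt- genes and all lists were chosen with earlier results of these data known. All mt- rRNA and mRNA genes are named, and of each nuclear list up to 3 called genes per direction at 48h with the smallest adjusted p among those with a mean TPM of at least 1, plus Polrmt, Tfam, Lrpprc and Ppargc1b. No tRNA gene was named for its level, since all were listed at 0.

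The 16415 genes whose mean TPM reached 0.1 entered the tests on log2(TPM + 0.1), a scale that understates changes of low genes, with limma 3.58.1 in R 4.3.3 (all 12 libraries in 1 model, eBayes with trend, Benjamini-Hochberg adjustment over all genes, called under 0.05). Ratios were tested by exact permutation in Python 3.11.15. Both were tested on simulated data. Nuclear copies and shared windows were found in GRCm38 with annotation of GENCODE M21, to which 100% of the 55450 gene IDs matched. Pseudocounts, filters, scalings, a replicate block, left-out libraries and joined copies were tried as alternatives.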

Additional observations from a re-analysis of the deposited data

How the results depend on the processing

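The number of mt- genes called moved with the filter, the scaling and the libraries kept. At 1h, 1 gene was called higher, against 3 with a mean TPM of at least 1, 6 from replicates 1 and 2 alone (as deposited or joined with copies), and 0 without a filter, with any of 4 other scalings (median-of-ratios, joined or with replicates 1 and 2 alone too, rescaling without the 20 most abundant genes or without the mt- genes and the chromosome 17 pair, and quantile normalization), with eBayes without a trend, or beyond a log2 change of 1 or 2. At 12h, the 4 genes became 0 without a filter, with the same 4 scalings, with joined levels and median-of-ratios scaling, and beyond a log2 change of 2, and 8 with joined levels of replicates 1 and 2 alone. At 48h, 0 genes were called higher, against 2 from replicates 1 and 2 alone (as deposited or joined) and 7 when these were scaled by median-of-ratios. The 2 genes lower at 48h became 1 under the 4 scalings, with joined levels and median-of-ratios scaling, from replicates 1 and 2 alone as deposited and beyond a log2 change of 2, and 0 without a filter, from the 6 libraries compared only, or from replicates 1 and 2 with median-of-ratios scaling. With joined levels of replicates 1 and 2 alone, 3 were lower (mt-Nd1, mt-Co3 and mt-Nd3). Leaving out 1 library at a time gave 0 to 6 genes higher at 1h, 1 to 6 at 12h and 0 to 4 at 48h, and 1 to 2 lower at 48h, with the highest counts of genes higher each time without replicate 3 of 48h. Where no share of all genes is printed for a setting, here or above, its count cannot be read against a background. The causes were not tested. Of the neighbour ratios, 5 of 14 passed, 9 with joined levels, 0 from replicates 1 and 2 alone, and 5 to 6 with 1 library left out. With replicates 1 and 2 alone the few assignments left a single pair no way to pass after adjustment. The settings with replicates 1 and 2 alone, with joined levels, and with the block and another scaling together were chosen after seeing the data.

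Replicate numbers are shared by all time points. The correlation of deviations from group means over all genes tested was over 0.1 in 7 of 18 same-numbered pairs, and 7 of 12 libraries correlated best with their own number. It was 0.07 to 0.26 for replicate 3, 0.01 to 0.11 for replicate 1 and -0.01 to 0.06 for replicate 2. Replicate 3 was also lowest in 15 of 15 joined mt- genes at all 4 time points. The labels name no shared day or batch, and the main counts use no block. With a replicate block, 7 genes were called higher at 1h, 8 at 12h and 1 at 48h (9, 11 and 2 joined), and 3 lower at 48h. The share of all genes called with the block is not given here, so these counts cannot be read against a background. With the block and median-of-ratios scaling, 0, 5 and 7 were higher. Permuted within replicate numbers, 5 ratios passed.

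Signs turned for genes that passed no test there. With median-of-ratios scaling these were mt-Rnr1 at 1h (-0.19), mt-Rnr2 at 1h (-0.23), mt-Co1 at 1h (-0.053), mt-Atp8 at 1h (-0.026), mt-Cytb at 48h (0.17), with the same values under the block with that scaling, and, joined, mt-Co1 at 1h (-0.053), mt-Co3 at 1h (-0.25), mt-Co3 at 12h (-0.00085), mt-Nd3 at 1h (-0.31), mt-Nd3 at 12h (-0.016), mt-Nd4l at 1h (-0.042), mt-Nd4l at 48h (0.35). With that scaling of replicates 1 and 2 they were mt-Rnr1 at 1h (-0.15), mt-Rnr2 at 1h (-0.22), mt-Co1 at 1h (-0.0035), mt-Atp6 at 1h (-0.24), mt-Nd2 at 48h (0.25), mt-Nd4l at 48h (0.75), mt-Cytb at 48h (0.40), and without scaling mt-Nd4l at 48h (0.20). Without the 20 most abundant genes they were mt-Rnr1 at 1h (-0.023), mt-Rnr2 at 1h (-0.062), mt-Cytb at 48h (0.088), without the mt- genes and the chromosome 17 pair mt-Cytb at 48h (0.0072), with quantile normalization mt-Nd2 at 48h (0.13), mt-Co1 at 48h (-0.0030), mt-Nd4l at 48h (0.10), mt-Cytb at 48h (0.36), and with a pseudocount of 1 mt-Co2 at 12h (0.32). With 1 library left out, the log2 change ranged over both signs for mt-Co2 at 1h (-3.15 to 1.89) and 12h (-3.18 to 2.21), mt-Co3 at 1h (-3.80 to 0.63) and 12h (-3.83 to 0.80), mt-Nd3 at 12h (-0.15 to 4.11), mt-Nd4l at 1h (-4.54 to 0.65), 12h (-0.82 to 0.12) and 48h (-0.93 to 0.35), mt-Nd4 at 48h (-0.018 to 0.64) and mt-Cytb at 48h (-0.44 to 0.041). TPM hold no depth, so the counting error behind any value is unknown.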
